A study of Homo sapiens with 9 samples.

Results

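Expression of 10 genes of polyamine synthesis and turnover was followed in Daudi, a Burkitt lymphoma cell line of B cells: ODC1, SRM, SMS, AMD1, OAZ1, OAZ2, AZIN1, SAT1, SAT2 and PAOX. They were taken by name, with all probe sets that carry exactly that symbol, and are 10 of the 19775 genes the array measured with such a probe set. The choice of genes was made with earlier results of these data known. All 10 were among the 11250 genes whose signal was high enough to be tested. The cells carried a short hairpin RNA that targets MYC (C-Myc-sh) or SLC7A5 (Slc7a5-sh), or a control hairpin (Ctrl-sh), with 3 arrays each, and every group was kept under puromycin for 48 h. The labels name each hairpin by its target alone and do not give how the biological replicates were made, so p-values measure the spread between these samples, which may be technical. In bulk RNA, fewer cells with a transcript and less transcript per cell cannot be told apart. The study used C-Myc-sh as a positive control; SLC7A5 is the light chain of a transporter of large neutral amino acids.

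Polyamines are small positively charged molecules that bind nucleic acids and are needed for cell growth. Ornithine decarboxylase, encoded by ODC1, makes putrescine from ornithine, and the synthases SRM and SMS extend it to spermidine and then spermine with aminopropyl groups that AMD1 prepares from S-adenosylmethionine. Antizymes hold ornithine decarboxylase in check, AZIN1 binds the antizymes in its place, and acetylation by SAT1 followed by oxidation by PAOX turns the higher polyamines back. ODC1 is a textbook target of MYC, which binds the E-box sequence CACGTG as a dimer with MAX.

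The first bases shown are those upstream of the start sites of the 4 synthesis genes, which carried the clearest result. They are from RefSeq, build GRCh38.p14, in the direction of transcription, with matched letters in capitals. In SRM these are the E-box CACGTG. In ODC1 they are CACGCGTG, where CACGCG, and not CACGTG, is matched on both strands with overlap.
SRM, chr1:11060019-11060268, minus strand: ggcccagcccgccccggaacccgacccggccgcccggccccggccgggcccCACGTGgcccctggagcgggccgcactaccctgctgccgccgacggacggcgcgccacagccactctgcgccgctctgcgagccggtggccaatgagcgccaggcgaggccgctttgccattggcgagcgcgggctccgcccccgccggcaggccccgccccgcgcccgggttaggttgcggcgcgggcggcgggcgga
ODC1, first listed start, chr2:10448328-10448577, minus strand: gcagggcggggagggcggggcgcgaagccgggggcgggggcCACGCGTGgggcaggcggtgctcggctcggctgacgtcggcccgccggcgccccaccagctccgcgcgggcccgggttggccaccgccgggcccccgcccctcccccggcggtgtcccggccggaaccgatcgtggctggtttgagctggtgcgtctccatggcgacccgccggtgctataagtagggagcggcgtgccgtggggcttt
SMS, chrX:21940459-21940708, plus strand: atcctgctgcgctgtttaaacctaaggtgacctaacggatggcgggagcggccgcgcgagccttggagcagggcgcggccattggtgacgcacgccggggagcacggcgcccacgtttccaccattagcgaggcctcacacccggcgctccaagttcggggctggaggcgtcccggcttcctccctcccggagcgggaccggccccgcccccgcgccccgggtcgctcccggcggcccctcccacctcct
AMD1, first listed start, chr6:110874535-110874784, plus strand: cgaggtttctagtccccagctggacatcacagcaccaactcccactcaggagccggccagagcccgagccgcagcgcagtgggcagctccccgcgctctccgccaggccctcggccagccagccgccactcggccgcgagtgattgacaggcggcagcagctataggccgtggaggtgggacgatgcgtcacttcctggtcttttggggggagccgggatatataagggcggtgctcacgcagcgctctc
ODC1 has a further listed start inside the gene, and CACGTG stands on both sides of it, in these 30-base stretches of the minus strand.
ODC1, chr2:10448024-10448053: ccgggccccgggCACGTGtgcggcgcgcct
ODC1, chr2:10447990-10448019: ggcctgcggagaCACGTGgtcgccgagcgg
The table of promoter windows, each with 250 bases before and 50 after a start, held 8 of the 10 genes. CACGTG was in a window of 2 of these 8, ODC1 and SRM, beside 8.77% of 27305 genes in the table. In SRM the match began 199 bases before the start, and in ODC1 matches began 29 bases before and 6 bases after the further start. CACGCG, searched on both strands, was matched in ODC1 only among the 8, beside 13.5% of all genes. TGATGNAAT, a core of the amino acid response element bound by ATF4, searched on both strands, was in none of the 8 and in 1.22% of all genes. A match is a description of these letters and not evidence of binding.

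Values are log2 signals as the authors deposited them, so a difference of 1 is a doubling, and each array had been scaled to the same mean. The array medians lay between 6.05 and 6.26, and arrays of one group correlated at 0.972 to 0.977 over the tested genes. All 8 measured B-cell markers and all 5 measured germinal centre markers were above the filter level of 5.77 in every group. Of 11 T and NK cell markers, 2, 1 and 3 were at or above it in C-Myc-sh, Slc7a5-sh and Ctrl-sh, and of 7 myeloid markers 1, 0 and 1. The corresponding counts for 10 epithelial and fibroblast markers were 4, 5 and 3. Summed over these marker lists on the linear scale, the B-cell markers came to between 48609 and 51773 per array in C-Myc-sh, 34436 and 35097 in Slc7a5-sh and 42501 and 46072 in Ctrl-sh, and the germinal centre markers to between 24908 and 26816 in C-Myc-sh, 40209 and 43111 in Slc7a5-sh and 46324 and 49302 in Ctrl-sh. The sums of the T and NK cell, myeloid, and epithelial and fibroblast markers were at most 583, 365 and 956 on any array. Their part in the results below was not tested. The targeted gene MYC averaged 12.13 ± 0.01 in C-Myc-sh, 12.87 ± 0.07 in Slc7a5-sh and 13.22 ± 0.05 in Ctrl-sh (SD, n = 3 each). SLC7A5 averaged 11.80 ± 0.03, 11.89 ± 0.06 and 12.21 ± 0.15 in the same groups. Its signal was 80.0% of Ctrl-sh in Slc7a5-sh (limma adjusted p = 0.00414) and 75.4% in C-Myc-sh (limma adjusted p = 0.000186). C-Myc-sh against Slc7a5-sh read -0.08 for SLC7A5 (limma adjusted p = 0.351), so its fall was no larger in Slc7a5-sh. MYC was at 78.7% of Ctrl-sh in Slc7a5-sh (limma adjusted p = 0.000381) and 46.9% in C-Myc-sh (limma adjusted p = 4.7e-10). Both hairpins thus came with lower SLC7A5 and lower MYC, and what follows from either alone cannot be told apart.

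In C-Myc-sh the 4 synthesis enzymes fell together, ODC1 to 27.2% and SRM to 24.7% of the Ctrl-sh signal, while SAT2 and AZIN1 rose. The other acetyltransferase gene, SAT1, rose by a log2 change of 0.26, a call lost in 5 of 18 other settings. In Slc7a5-sh against Ctrl-sh AMD1 and SMS fell, with log2 changes of -0.57 and -0.30, and ODC1 and SRM did not pass the test. SRM read -0.16, with all its Slc7a5-sh arrays below the Ctrl-sh arrays, and ODC1 read -0.02 with overlapping arrays. Whether the changes of these genes differed from each other was not tested. Of the 10 genes, 5 were lower and 3 higher in C-Myc-sh against Ctrl-sh, beside 54.9% of all tested genes called in that comparison (26.2% lower and 28.7% higher). The corresponding counts for Slc7a5-sh against Ctrl-sh were 3 lower and 2 higher, beside 25.3% of all tested genes (11.0% lower and 14.3% higher). Both comparisons share the 3 Ctrl-sh arrays. In C-Myc-sh against Slc7a5-sh 5 genes were lower and 2 higher, beside 49.5% of all tested genes (25.1% lower and 24.4% higher). The arrays did not overlap for 8 of the 10 genes in C-Myc-sh against Ctrl-sh (62.2% of all tested genes), 4 in Slc7a5-sh against Ctrl-sh (39.8%) and 7 in C-Myc-sh against Slc7a5-sh (56.5%). Called changes of 1 or more on the log2 scale were seen for 4, 0 and 2 of the 10 genes in these comparisons, beside 14.3%, 1.48% and 9.67% of all tested genes. The median log2 change of the 10 genes was -0.25 in C-Myc-sh and -0.09 in Slc7a5-sh, each against Ctrl-sh, beside 0.04 and 0.03 for all tested genes. Calls are from limma at a Benjamini-Hochberg adjusted p under 0.05 over all tested genes.

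**Figure D1:**
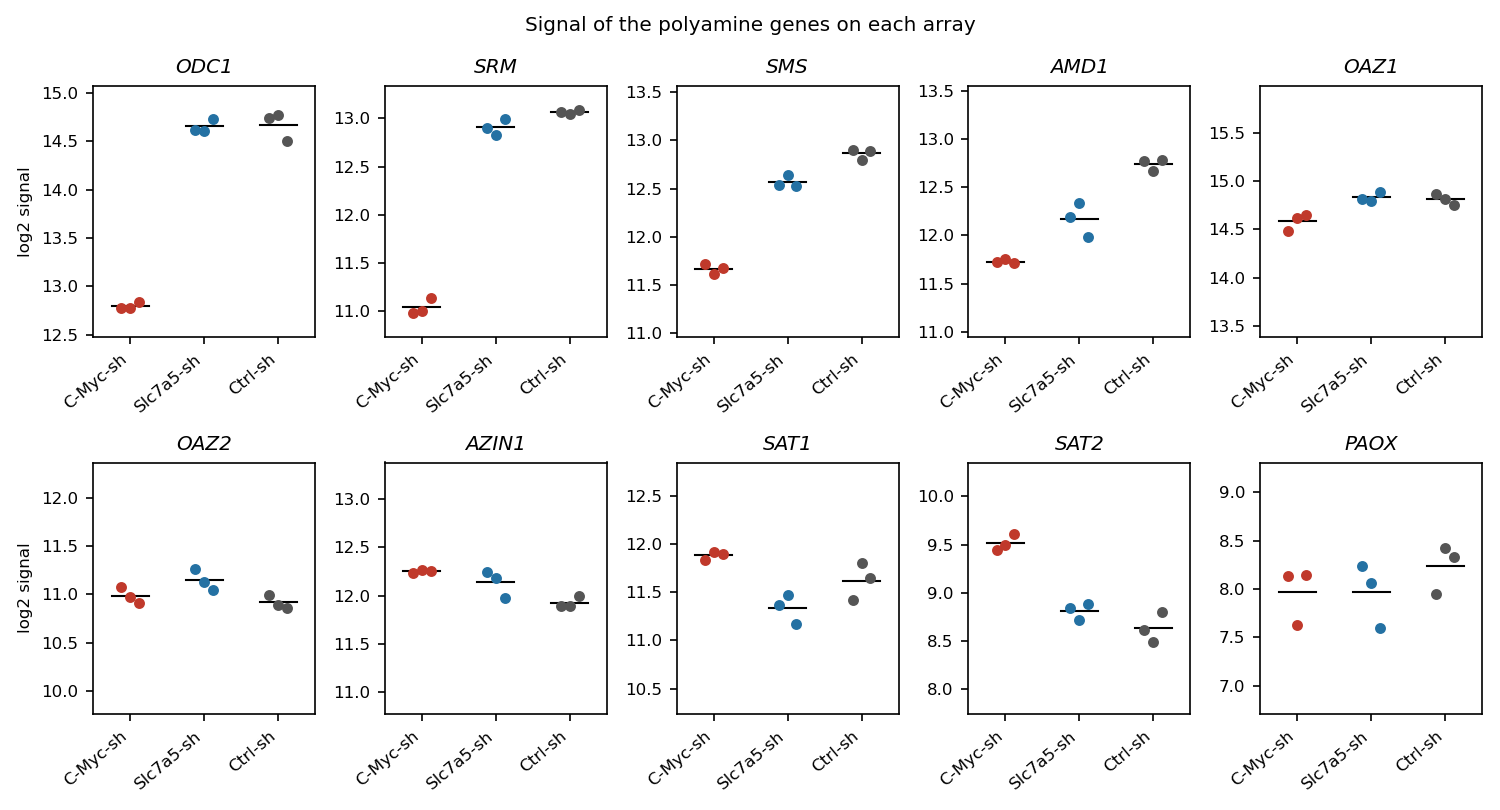
Log2 signal (vertical axis, same height of scale in every panel) of each of the 10 genes on each array, with C-Myc-sh, Slc7a5-sh and Ctrl-sh along the horizontal axis; dots are single arrays and bars the mean of 3. The C-Myc-sh arrays of ODC1, between 12.78 and 12.83, lie far below all others, which lie between 14.51 and 14.77, and AMD1 and SMS have Slc7a5-sh in between.

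ODC1, the enzyme of the first step, had log2 signals of 12.78, 12.78 and 12.83 in C-Myc-sh, 14.62, 14.61 and 14.74 in Slc7a5-sh and 14.75, 14.77 and 14.51 in Ctrl-sh. The C-Myc-sh arrays were all lower than the other 6, and Slc7a5-sh and Ctrl-sh overlapped. Its signal in C-Myc-sh was 27.2% of that in Ctrl-sh (log2 change -1.88, SE 0.07, 95% confidence interval -2.02 to -1.74; limma adjusted p = 1.5e-11). In Slc7a5-sh the log2 change was -0.02 with an interval of -0.16 to 0.12 (limma adjusted p = 0.883). The direct comparison of C-Myc-sh with Slc7a5-sh gave -1.86 (SE 0.07, limma adjusted p = 3.1e-11). Counted from the lowest change in C-Myc-sh against Ctrl-sh, ODC1 had rank 114 of the 11250 tested genes.

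SRM, spermidine synthase, had log2 signals of 10.98, 11.00 and 11.14 in C-Myc-sh, 12.90, 12.82 and 12.99 in Slc7a5-sh and 13.06, 13.04 and 13.09 in Ctrl-sh. No groups overlapped, and the Slc7a5-sh arrays sat just under the Ctrl-sh arrays. Its change in C-Myc-sh against Slc7a5-sh was -1.86 (SE 0.06, limma adjusted p = 1.8e-11), the same size as for ODC1. Against Ctrl-sh C-Myc-sh gave -2.02 (SE 0.06, limma adjusted p = 4.2e-12). In Slc7a5-sh against Ctrl-sh the log2 change was -0.16 (SE 0.06, interval -0.29 to -0.03), which did not pass over all tested genes (limma adjusted p = 0.0777). It passed without Slc7a5-sh replicate 3 (-0.20, limma adjusted p = 0.038).

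SMS, spermine synthase, had log2 signals of 11.72, 11.62 and 11.68 in C-Myc-sh, 12.53, 12.64 and 12.52 in Slc7a5-sh and 12.90, 12.79 and 12.89 in Ctrl-sh. The 3 groups were fully apart, with C-Myc-sh lowest and Ctrl-sh highest. Its signal was 43.8% of Ctrl-sh in C-Myc-sh (log2 change -1.19, SE 0.06, limma adjusted p = 3.4e-10) and 81.3% of Ctrl-sh in Slc7a5-sh (log2 change -0.30, SE 0.06, limma adjusted p = 0.00171). C-Myc-sh was lower than Slc7a5-sh by a log2 difference of -0.89 (SE 0.06, limma adjusted p = 1.1e-08).

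AMD1, adenosylmethionine decarboxylase, had log2 signals of 11.72, 11.75 and 11.71 in C-Myc-sh, 12.19, 12.34 and 11.98 in Slc7a5-sh and 12.77, 12.67 and 12.78 in Ctrl-sh. The groups did not overlap, and Slc7a5-sh lay about midway on the log2 scale with the widest spread (SD 0.18, against 0.02 in C-Myc-sh and 0.06 in Ctrl-sh). Its log2 change in Slc7a5-sh, -0.57 (SE 0.08, interval -0.74 to -0.41; limma adjusted p = 0.000118), was the lowest of the 10 genes in that comparison. In C-Myc-sh its change was -1.01 (SE 0.08, limma adjusted p = 4.0e-08), the smallest fall of the 4 synthesis enzymes there. The direct comparison gave -0.44 (SE 0.08, limma adjusted p = 0.00023).

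**Figure D2:**
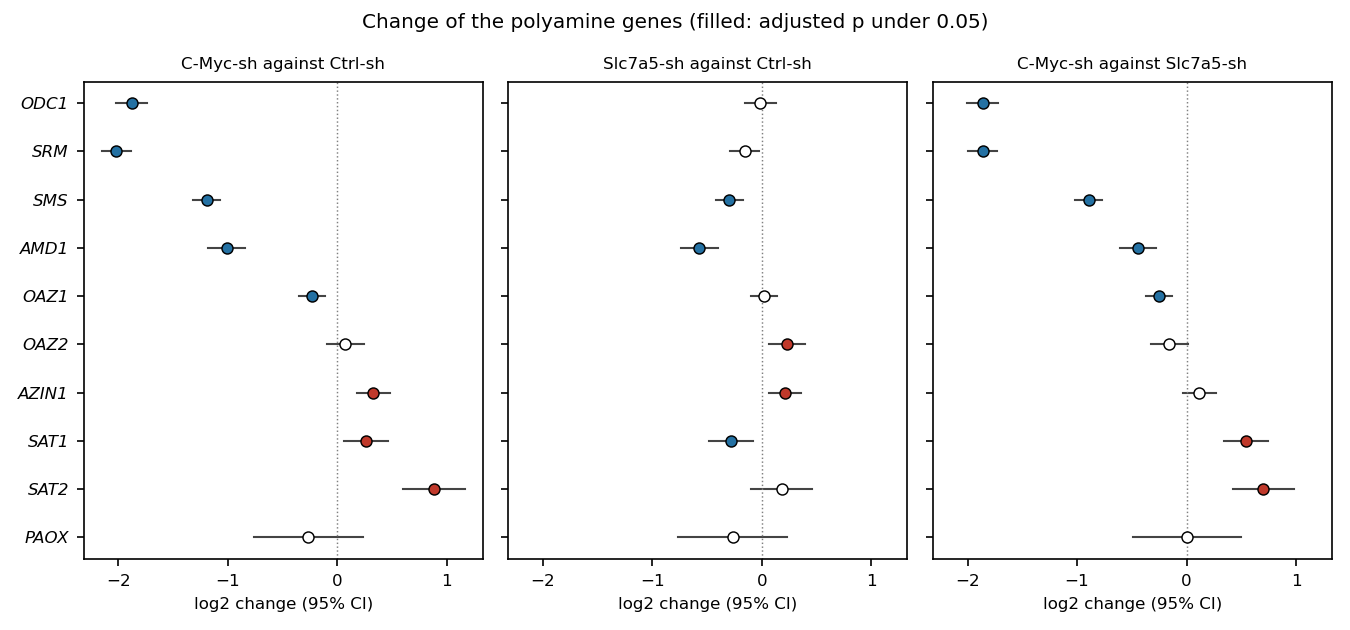
Log2 change (horizontal axis, same scale in all panels) of the 10 genes, one per row, in C-Myc-sh against Ctrl-sh, Slc7a5-sh against Ctrl-sh and C-Myc-sh against Slc7a5-sh; bars are 95% confidence intervals from limma and filled dots passed at an adjusted p under 0.05. The 4 synthesis enzymes lie between -2.02 and -1.01 in the left panel and between -0.57 and -0.02 in the middle one.

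OAZ1, the main antizyme, whose full-length protein is made by a ribosomal frameshift that polyamines promote, had log2 signals of 14.48, 14.62 and 14.65 in C-Myc-sh, 14.81, 14.80 and 14.89 in Slc7a5-sh and 14.86, 14.82 and 14.75 in Ctrl-sh. The C-Myc-sh arrays were the 3 lowest, and Slc7a5-sh and Ctrl-sh overlapped. OAZ1 fell by 0.23 on the log2 scale in C-Myc-sh against Ctrl-sh (SE 0.06, limma adjusted p = 0.00251) and was lower than in Slc7a5-sh by a log2 difference of -0.25 (SE 0.06, limma adjusted p = 0.00147). These small changes depended on the scaling between arrays: with quantile normalization they were -0.09 (limma adjusted p = 0.0279) and -0.03 (limma adjusted p = 0.512). The transcript level says nothing about the frameshift.

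OAZ2, a second antizyme, had log2 signals of 11.07, 10.98 and 10.91 in C-Myc-sh, 11.27, 11.13 and 11.04 in Slc7a5-sh and 10.99, 10.89 and 10.86 in Ctrl-sh. The Slc7a5-sh arrays lay above the Ctrl-sh arrays, and C-Myc-sh overlapped both. The log2 change in Slc7a5-sh was 0.23 (SE 0.08, limma adjusted p = 0.044), and in C-Myc-sh 0.07 (SE 0.08, limma adjusted p = 0.463). The Slc7a5-sh call was lost without Ctrl-sh replicate 2 (0.22) or 3 (0.20), Slc7a5-sh replicate 1 (0.17) or 2 (0.24), or C-Myc-sh replicate 2 (0.23), and the other OAZ2 probe set read -0.02. It was also lost with quantile normalization (0.21), with no filter, with the mean of the probe sets (0.10), with eBayes without trend, with only the 6 arrays compared and with each probe set tested on its own (limma adjusted p from 0.0557 to 0.454). In C-Myc-sh against Slc7a5-sh the difference was -0.16 (SE 0.08, limma adjusted p = 0.112), which passed without Slc7a5-sh replicate 3 (-0.21, limma adjusted p = 0.0494).

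AZIN1, the antizyme inhibitor, had log2 signals of 12.23, 12.27 and 12.26 in C-Myc-sh, 12.25, 12.19 and 11.97 in Slc7a5-sh and 11.89, 11.89 and 11.99 in Ctrl-sh. All C-Myc-sh arrays were above Ctrl-sh, and 1 Slc7a5-sh array fell within the Ctrl-sh range. AZIN1 rose by a log2 change of 0.33 in C-Myc-sh (1.25-fold, SE 0.07, limma adjusted p = 0.001), against the direction of the synthesis enzymes. In Slc7a5-sh the change was 0.21 (SE 0.07, limma adjusted p = 0.038), a call lost without Ctrl-sh replicate 1 (0.19) or 2 (0.19) or Slc7a5-sh replicate 1 (0.16) or 2 (0.19). It was also lost with no filter, with the mean of the probe sets, with eBayes without trend and with only the 6 arrays compared (limma adjusted p from 0.0575 to 0.110). The 2 knockdowns differed by 0.12 with an interval of -0.03 to 0.27 (limma adjusted p = 0.189).

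SAT1, the acetyltransferase that starts polyamine breakdown and export, had log2 signals of 11.84, 11.91 and 11.90 in C-Myc-sh, 11.37, 11.47 and 11.17 in Slc7a5-sh and 11.42, 11.80 and 11.64 in Ctrl-sh. C-Myc-sh was above both other groups on every array, while 1 Ctrl-sh array lay within the Slc7a5-sh range. It was the one gene of the 10 called in opposite directions, with a log2 change of 0.26 in C-Myc-sh (SE 0.09, limma adjusted p = 0.0273) and -0.28 in Slc7a5-sh (SE 0.09, limma adjusted p = 0.0373), each against Ctrl-sh. The difference between the knockdowns was 0.54 (1.46-fold, SE 0.09, interval 0.35 to 0.74; limma adjusted p = 0.000185). On the probe set used for the gene, both calls against Ctrl-sh rested on few arrays. The C-Myc-sh call was lost without Ctrl-sh replicate 1 (0.16) or 3 (0.27) or C-Myc-sh replicate 2 (0.25) or 3 (0.25). The Slc7a5-sh call was lost without Ctrl-sh replicate 2 (-0.20) or 3 (-0.27) or Slc7a5-sh replicate 1 (-0.30) or 3 (-0.20). The Slc7a5-sh call was also lost with quantile normalization (-0.26), with the mean of the probe sets (-0.19), with eBayes without trend and with only the 6 arrays compared (limma adjusted p from 0.0519 to 0.123), and the C-Myc-sh call with eBayes without trend (limma adjusted p = 0.0899). The direct comparison passed in all 18 other settings that measured SAT1, with changes from 0.46 to 0.61.

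SAT2, a related acetyltransferase, had log2 signals of 9.44, 9.49 and 9.61 in C-Myc-sh, 8.84, 8.72 and 8.88 in Slc7a5-sh and 8.61, 8.49 and 8.81 in Ctrl-sh. C-Myc-sh was clear of the other groups, which overlapped. SAT2 rose 1.84-fold in C-Myc-sh against Ctrl-sh (log2 change 0.88, SE 0.13, interval 0.60 to 1.16; limma adjusted p = 4.0e-05), the largest rise of the 10 genes in that comparison. Against Slc7a5-sh the rise was 0.70 (SE 0.13, limma adjusted p = 0.000402). In Slc7a5-sh against Ctrl-sh the change was 0.18, with an interval of -0.10 to 0.46 (limma adjusted p = 0.348).

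PAOX, the peroxisomal oxidase of acetylated polyamines, had log2 signals of 8.14, 7.63 and 8.14 in C-Myc-sh, 8.24, 8.07 and 7.59 in Slc7a5-sh and 7.94, 8.43 and 8.34 in Ctrl-sh. All 3 groups overlapped. Its log2 change was -0.26 in C-Myc-sh (SE 0.23, limma adjusted p = 0.358) and -0.27 in Slc7a5-sh (SE 0.23, limma adjusted p = 0.441). The intervals, -0.76 to 0.23 in both, leave room for a change in either direction.

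The probe sets of a gene can read different transcript ends, and 6 of the 10 genes had more than 1. In all there were 20 probe sets, 18 of them at or above the filter level. Each was also tested on its own, among 22166 probe sets. AMD1 fell on its other probe set too, by a log2 change of -0.84 in C-Myc-sh (limma adjusted p = 3.3e-06) and -0.36 in Slc7a5-sh (limma adjusted p = 0.0143). The other OAZ1 probe set read -0.14 in C-Myc-sh against Ctrl-sh (limma adjusted p = 0.0527).

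AZIN1 rose in C-Myc-sh on its next probe set, by 0.39 (limma adjusted p = 0.000222), where Slc7a5-sh read 0.07 (limma adjusted p = 0.514) and the knockdowns differed by 0.32 (limma adjusted p = 0.00145). The Slc7a5-sh call of AZIN1 was not shared by that probe set, nor by a dimmer one, which read 0.50 (limma adjusted p = 0.256). SAT1 was higher in C-Myc-sh than in Slc7a5-sh on all 3 of its probe sets, by 0.39 to 0.54 (highest limma adjusted p = 0.00653). Its other 2 probe sets read -0.09 and -0.21 in Slc7a5-sh against Ctrl-sh and did not pass. In C-Myc-sh against Ctrl-sh the same 2 read 0.38 (limma adjusted p = 0.000425) and 0.18 (limma adjusted p = 0.166). All 3 SAT1 probe sets end in _s_at, a class that can also bind related transcripts.

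The probe sets of PAOX differed in size and call. One other probe set had log2 signals of 6.41, 6.15 and 4.94 in C-Myc-sh, 6.52, 6.80 and 6.49 in Slc7a5-sh and 7.19, 7.82 and 7.34 in Ctrl-sh. On it the log2 change in C-Myc-sh was -1.62 (SE 0.41, limma adjusted p = 0.00458) and that in Slc7a5-sh -0.84 (limma adjusted p = 0.174), both against Ctrl-sh. The remaining 2 PAOX probe sets averaged 5.68 and 5.30 over the 9 arrays, under the filter level, with SDs between 0.80 and 1.70 within groups. The C-Myc-sh mean was below the Ctrl-sh mean on all 4 PAOX probe sets, by -0.26, -1.62, -0.21 and -0.74, and 1 of the 2 tested passed. The probe sets of OAZ2 had opposite signs, at 0.23 and -0.02 in Slc7a5-sh against Ctrl-sh and at -0.16 and 0.22 in C-Myc-sh against Slc7a5-sh.

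**Figure D3:**
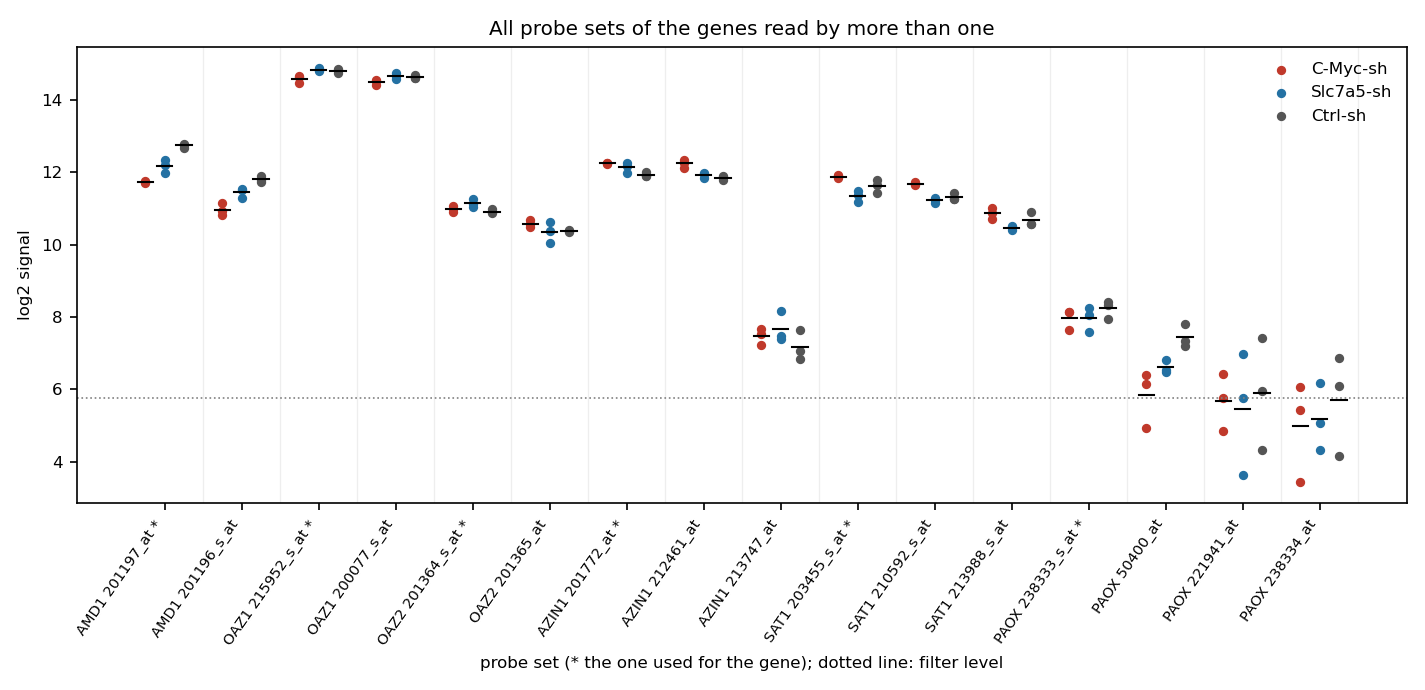
Log2 signal (vertical axis) of every probe set of the 6 genes read by more than 1 (horizontal axis, the one used for the gene starred); dots are arrays, bars means of 3, and the dotted line is the filter level of 5.77. AMD1 has the same order of groups on both probe sets, while of the 4 PAOX probe sets the 2 lowest scatter around the filter level.

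Genes around the core pathway were taken from lists chosen by function, with earlier results of these data known. In C-Myc-sh against Ctrl-sh 54.9% of all tested genes were called. Of 5 tested enzymes and regulators of ornithine supply and polyamine control, 2 fell there and none rose. These were OAT, ornithine aminotransferase (log2 change -0.65, SE 0.06, limma adjusted p = 3.9e-07), and ARG2, the mitochondrial arginase that releases ornithine (-1.12, SE 0.25, limma adjusted p = 0.00133). Without the _s_at and _x_at probe sets ARG2 read -0.50 and no longer passed. In Slc7a5-sh ARG2 alone of the 5 was called, at -0.72 (limma adjusted p = 0.0472), beside 25.3% of all tested genes. The call was lost without Ctrl-sh replicate 1 (-0.62) or 3 (-0.63) or any of the Slc7a5-sh replicates 1 to 3 (-0.70, -0.64 and -0.82). It was also lost with quantile normalization, with no filter, with the mean of the probe sets, with each probe set tested on its own and without _s_at and _x_at probe sets, where the change was -0.41 (limma adjusted p from 0.0521 to 0.329). OAT read -0.13 there and passed without Ctrl-sh replicate 2 (-0.19). The oxidase SMOX had SDs of 1.20 and 1.60 in C-Myc-sh and Slc7a5-sh, against 0.15 in Ctrl-sh, and did not pass.

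Aminopropyl transfer uses decarboxylated S-adenosylmethionine and leaves methylthioadenosine, which the methionine salvage enzymes recycle. Of 7 genes of this supply and salvage, 4 fell and 2 rose in C-Myc-sh, and 1 fell and 2 rose in Slc7a5-sh, each against Ctrl-sh. Over all tested genes, 54.9% and 25.3% were called in these comparisons. MTAP, which cleaves methylthioadenosine, averaged 9.53 ± 0.08 in C-Myc-sh, 10.39 ± 0.10 in Slc7a5-sh and 10.25 ± 0.11 in Ctrl-sh (SD, n = 3 each). It fell by a log2 change of -0.72 in C-Myc-sh (SE 0.10, limma adjusted p = 1.4e-05) and read 0.14 in Slc7a5-sh (limma adjusted p = 0.33). ENOPH1, a later salvage enzyme, fell in C-Myc-sh (-0.98) and in Slc7a5-sh (-0.44), and APIP fell in C-Myc-sh (-0.63), though the mean of its probe sets read 0.11 and did not pass.

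ADI1, the dioxygenase near the end of the salvage route, went the other way. It averaged 12.68 ± 0.36 in C-Myc-sh, 12.58 ± 0.17 in Slc7a5-sh and 11.41 ± 0.33 in Ctrl-sh (SD, n = 3 each). Its log2 changes were 1.27 in C-Myc-sh (SE 0.17, limma adjusted p = 1.1e-05) and 1.17 in Slc7a5-sh (SE 0.17, limma adjusted p = 0.000161), and the knockdowns differed by 0.10 (limma adjusted p = 0.651). The subunits of methionine adenosyltransferase, which makes S-adenosylmethionine, moved apart in C-Myc-sh. There the catalytic MAT2A fell by a log2 change of -0.55 and the regulatory MAT2B rose by 0.50 (SE 0.06 and 0.05, limma adjusted p = 7.0e-07 and 1.1e-06). In Slc7a5-sh MAT2A read -0.05 and did not pass, and MAT2B rose by 0.31 on a probe set ending in _s_at, while without such probe sets it read -0.040 and with the mean of its probe sets 0.14, neither of which passed. Its rise in C-Myc-sh read 0.84 without such probe sets.

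**Figure D4:**
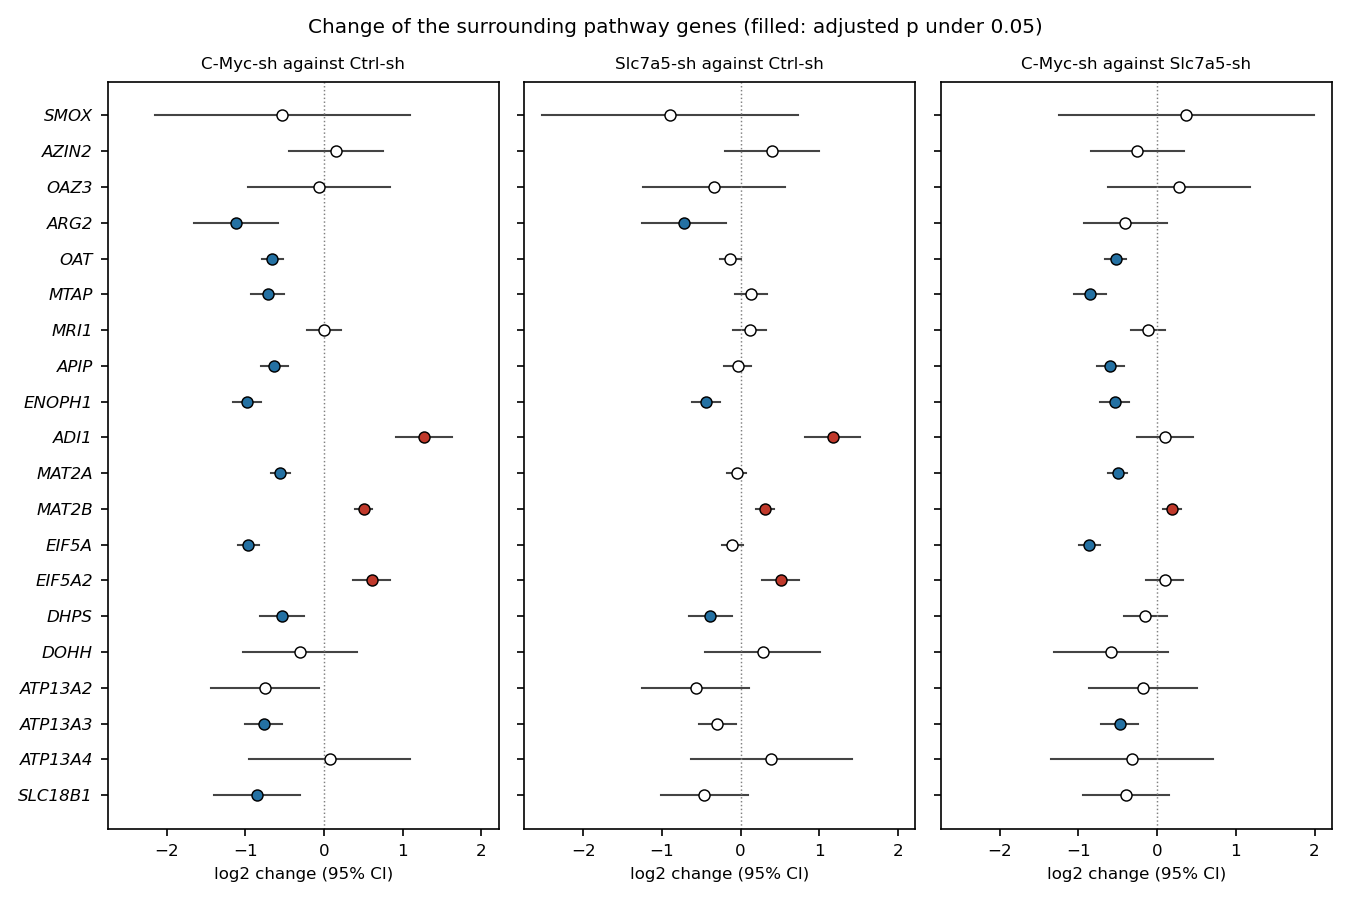
Log2 change (horizontal axis, same scale in all panels) of the 20 tested genes of ornithine supply and control, methionine salvage, hypusine formation and polyamine transport, one per row, in the 3 comparisons; bars are 95% confidence intervals and filled dots passed at an adjusted p under 0.05. ADI1 is far right at 1.27 and 1.17 in both comparisons with Ctrl-sh, and MTAP is called lower in C-Myc-sh, with a direct difference from Slc7a5-sh of -0.85.

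Spermidine is also the donor for hypusine, a modified lysine found in the translation factor eIF5A. Of the 4 genes of this route, 2 fell and 1 rose in C-Myc-sh, and 1 fell and 1 rose in Slc7a5-sh, each against Ctrl-sh. The shares called over all tested genes were 54.9% and 25.3%. EIF5A averaged 13.05 ± 0.12 in C-Myc-sh, 13.91 ± 0.08 in Slc7a5-sh and 14.02 ± 0.04 in Ctrl-sh (SD, n = 3 each). Its log2 change was -0.96 in C-Myc-sh (SE 0.06, limma adjusted p = 8.0e-09) and -0.10 in Slc7a5-sh (limma adjusted p = 0.262), and the direct difference was -0.86 (limma adjusted p = 4.1e-08). With the mean of its probe sets EIF5A read -0.32 in Slc7a5-sh against Ctrl-sh and passed (limma adjusted p = 0.0109). The second isoform gene EIF5A2 rose in both, by 0.61 in C-Myc-sh (limma adjusted p = 0.000264) and 0.51 in Slc7a5-sh (limma adjusted p = 0.00364). DHPS, the deoxyhypusine synthase, fell by a log2 change of -0.53 in C-Myc-sh (limma adjusted p = 0.00257), or -0.33 with the mean of its probe sets. Its call in Slc7a5-sh (-0.38, limma adjusted p = 0.0406) was lost without any of Ctrl-sh replicates 1 to 3 (-0.44, -0.35 and -0.37) or Slc7a5-sh replicate 1 (-0.41) or 2 (-0.29). It was also lost with the mean of the probe sets, with eBayes without trend and with each probe set tested on its own (limma adjusted p from 0.0506 to 0.130).

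Of 4 tested genes of polyamine transport, 2 fell in C-Myc-sh and 0 were called in Slc7a5-sh by limma, each against Ctrl-sh. This stands beside 54.9% and 25.3% of all tested genes called. ATP13A3 came closest in Slc7a5-sh, at -0.30 (limma adjusted p = 0.0625). It passed there without Slc7a5-sh replicate 2 (-0.46) and with the filter at the 75th percentile (limma adjusted p = 0.0424). At an unadjusted p under 0.05, ATP13A3 was 1 of the 4 in Slc7a5-sh. At least 3329 of the 11250 tested genes were under it there too, as SRM held that rank (limma unadjusted p = 0.0230). ATP13A3, an endolysosomal polyamine pump, had a log2 change of -0.77 in C-Myc-sh (SE 0.11, limma adjusted p = 2.7e-05). SLC18B1, a vesicular polyamine transporter, had -0.85 (SE 0.26, limma adjusted p = 0.0108), with log2 signals of 7.84, 6.83 and 7.74 in C-Myc-sh and 8.22, 8.47 and 8.28 in Ctrl-sh. Without the low C-Myc-sh replicate 2 its change was -0.53 (limma adjusted p = 0.0471). For both, all 3 C-Myc-sh arrays lay below all 3 Ctrl-sh arrays.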

How the data were processed

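Total RNA was amplified and labelled with biotin by 3' in vitro transcription and measured on Affymetrix GeneChip arrays, per the labels' protocols. Each deposited value is the log2 signal of 1 probe set, made with MAS5 by the authors, whose version is not given, per the submitters' processing notes. That the base is 2 follows from the numbers: after 2% of probe sets were cut from each end, linear signals averaged 497 on every array, so the scale is relative and shows no change in total RNA per cell. No further normalization was applied. Groups came from the sample titles.

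Of 54613 probe sets, 41091 had exactly 1 gene symbol in the platform annotation. A gene was read by its brightest such probe set (mean of the 9 arrays) and tested if that mean reached 5.77, the median over probe sets. R 4.3.3 and limma 3.58.1 were used: lmFit with 3 group means, eBayes with trend, two-sided tests, Benjamini-Hochberg adjustment over 11250 genes. The test was run on simulated data beforehand. The number of arrays limits the precision. The members, lists and tests were chosen with earlier results of these data known; the genes named are the 10 members, MYC, SLC7A5 and genes of 4 surrounding lists, plus the 5 genes correlating best with ODC1 and with SAT1. The test of single probe sets was added after the data were seen. The other alternatives were another scaling, other filters, other choices of probe set, other variance settings, fewer arrays and the replicate number as a block.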

Additional observations from a re-analysis of the deposited data

How the results depend on the processing

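The falls of ODC1, SRM, SMS and AMD1 in C-Myc-sh, against Ctrl-sh and against Slc7a5-sh, and the rises of SAT2 there kept direction and call in every setting that measured them, as did the falls of AMD1 and SMS in Slc7a5-sh. The 10 genes had 186 alternative values per comparison, called or not. Against Ctrl-sh, 5 lost their call and 0 turned sign in C-Myc-sh, 28 and 8 in Slc7a5-sh. The 28 were of OAZ2 (11 of 19), AZIN1 (9 of 19) and SAT1 (8 of 18). C-Myc-sh against Slc7a5-sh had 1 and 8. A value that did both counted only as turned. The cause of the changes below was not tested, except that 7 of the 10 genes remain without _s_at and _x_at probe sets. The 2 genes called higher in Slc7a5-sh against Ctrl-sh became 1 with quantile normalization, with the replicate block, without _s_at and _x_at probe sets and with every probe set tested on its own. They became 0 without the filter on low signal, with the mean of all probe sets, with eBayes without trend and with only the 6 arrays compared, and 0 to 2 on leaving out single arrays. Without _s_at and _x_at probe sets 1 of 7 genes was lower there, and 1 was higher and 3 lower in C-Myc-sh against Slc7a5-sh. With probe sets averaged, 795 tested genes were higher and 786 lower in Slc7a5-sh against Ctrl-sh, in place of 1605 and 1238. PAOX without _s_at and _x_at probe sets was at -1.62 in C-Myc-sh against Ctrl-sh and passed. AZIN1 in C-Myc-sh against Slc7a5-sh passed with quantile normalization (0.21).

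Some changes turned sign, among them the called changes of OAZ2 and MAT2B in Slc7a5-sh and of APIP in C-Myc-sh, each against Ctrl-sh. In Slc7a5-sh against Ctrl-sh, OAZ1 read -0.064 with quantile normalization, -0.0066 without Ctrl-sh replicate 3 and -0.0059 without Slc7a5-sh replicate 3 (-0.0066 to 0.048 on leaving out single arrays). ODC1 read 0.020 and 0.030 without Ctrl-sh replicates 1 and 2, and 0.00062 and 0.0054 without Slc7a5-sh replicates 1 and 2 (-0.10 to 0.030 in all). OAZ2 read -0.021 there without _s_at and _x_at probe sets and MAT2B -0.040, and the mean of all probe sets put APIP at 0.26 and MTAP at -0.30; APIP read 0.015 without Ctrl-sh replicate 1 (-0.073 to 0.015 in all). With that mean APIP was at 0.11 in C-Myc-sh against Ctrl-sh. In C-Myc-sh against Slc7a5-sh, PAOX read -0.17 with quantile normalization, -0.19 with the mean of all probe sets, -0.77 without _s_at and _x_at probe sets, and -0.18 to 0.17 on leaving out single arrays, among them -0.080 without C-Myc-sh replicate 1 and -0.082 without replicate 3. OAZ2 read 0.032 with the mean of all probe sets and 0.22 without _s_at and _x_at probe sets. ADI1 read -0.0011 without Slc7a5-sh replicate 2 and -0.086 without C-Myc-sh replicate 3 (-0.086 to 0.27 in all), and DHPS 0.023 without C-Myc-sh replicate 1 (-0.26 to 0.023 in all).

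Arrays of one number did not deviate together (correlations of -0.02 to 0.02 over the tested genes, which are not independent of each other). In each comparison 1 or 2 of 6 arrays correlated best with their own number. With the replicate block the calls in Slc7a5-sh against Ctrl-sh were 1570 higher and 1205 lower over all tested genes, and among the 10 genes it took only the AZIN1 call there (limma adjusted p = 0.0543); ATP13A3 passed there with it (limma adjusted p = 0.0167). Quantile normalization moved the median of all tested genes by at most 0.05 on the log2 scale, but single genes moved further and in both directions. In C-Myc-sh against Ctrl-sh ODC1 then read -1.74 in place of -1.88 and EIF5A -0.79 in place of -0.96. MAT2B read 0.69 in place of 0.50 and PAOX -0.44 in place of -0.26.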

Other observations

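The tested genes whose log2 signal followed ODC1 most closely over the 9 arrays were DESI2, NAPSB, NME1, TIMM8B and TIMM9 (Pearson's r 0.996 to 0.998). The arrays fall into 3 groups, so r mostly describes that these genes, like ODC1, were low in C-Myc-sh and level in the other groups. NME1, a nucleoside diphosphate kinase, had a log2 change of -1.43 in C-Myc-sh and 0.03 in Slc7a5-sh, each against Ctrl-sh. TIMM8B and TIMM9, small chaperones of the mitochondrial intermembrane space, had -1.07 and -0.55 in C-Myc-sh. None of the 5 is a polyamine gene.

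Closest to SAT1 over the 9 arrays were ZBTB26, ZNF600, CYB5B, OSBPL8 and GTF2IP12 (Pearson's r 0.962 to 0.971). Their log2 changes were 0.12 to 0.49 in C-Myc-sh and -0.80 to -0.21 in Slc7a5-sh, each against Ctrl-sh. That these have the same sign as for SAT1 largely follows from the choice by correlation over the same arrays.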
